A study of Mus musculus with 4 samples.

Results

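The chemokine ligand genes Ccl1, Ccl3, Ccl4, Ccl5, Ccl9, Ccl20, Ccl22, Xcl1, Cxcl10 and Pf4, which T cells can transcribe, were followed in KO and wild-type (WT) T cells. They were chosen by name, as every probe set whose platform annotation names one of them alone, which gave 11 probe sets for 10 genes among 18193 named genes on the array. Ccl9 has 2 probe sets and the others have 1 each. Naive T cells had been isolated from mouse spleen, either KO or WT, and kept for 3 days in culture conditions that induce regulatory T cells (Treg cells). The data are 4 Affymetrix arrays with biotin as the only label, 2 of KO and 2 of WT cells, and the study set out to find genes that differ between KO and WT Treg cells. The labels name neither the gene removed in the KO, nor a strain, an age or a promoter, nor how naive cells were purified, and they do not say whether CD8 T cells were removed. Each array has a numbered source of mice of its own, but no label says that cultures were separate, so the spread behind each p-value may be technical.

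Chemokines are small secreted proteins that attract leukocytes through receptors coupled to G proteins. They are grouped by the spacing of their first cysteines into CC (Ccl), CXC (Cxcl and Pf4) and C (Xcl1) ligands, and many are held on cell surfaces by glycosaminoglycans. Activated T cells are known to release Ccl3, Ccl4, Ccl5 and Xcl1, while Ccl22 is best known from dendritic cells and macrophages, where it attracts Treg cells and helper T cells that carry its receptor Ccr4.

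The arrays held strong T cell signal in both genotypes. The 11 T cell defining markers with a probe set, among them the Cd3 chains, Thy1 and Cd4, all had a signal of at least 517 on every array, and their sum was 105209 to 111859 on the KO arrays and 84257 to 87146 on the WT arrays. Signals are MAS5 values on a linear scale. Over the 27022 probe sets tested, log2(signal + 16) correlated at r = 0.977 between the KO arrays, at 0.979 between the WT arrays and at 0.933 to 0.941 between genotypes. Probe sets are no replicates of each other, so these values only describe the arrays. Of the 11 markers 5 rose, among them Cd3g (log2 fold change 1.26), 2 fell, Cd5 (-0.82) and Cd6 (-0.73), and 4 were not called. Of the T cell defining markers 3 were called higher without WT array 1, without WT array 2, with median centring or with no filter, and 1 higher and 0 lower when the fit let the variance take no trend with signal intensity.

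For 8 of the 10 genes RefSeq promoters were at hand (build GRCm38.p6). The 250 bases before the start are printed for 3 ligand genes that rose in KO cells, Ccl3, Ccl9 and Pf4, and for Cxcl10, which did not pass the test although its promoter held the most matches. Capitals mark matches, on either strand, to the NF-kappaB consensus, to the AP-1 motif TGANTCA or to the interferon response motif, which is GAAA, any 2 bases and GAAA again.
Ccl3, chr11:83649379-83649628, minus strand: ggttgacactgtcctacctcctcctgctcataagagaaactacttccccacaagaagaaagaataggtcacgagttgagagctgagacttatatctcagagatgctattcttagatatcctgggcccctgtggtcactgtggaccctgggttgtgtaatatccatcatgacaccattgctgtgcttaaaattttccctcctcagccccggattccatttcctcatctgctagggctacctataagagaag
Ccl9, chr11:83578637-83578886, minus strand: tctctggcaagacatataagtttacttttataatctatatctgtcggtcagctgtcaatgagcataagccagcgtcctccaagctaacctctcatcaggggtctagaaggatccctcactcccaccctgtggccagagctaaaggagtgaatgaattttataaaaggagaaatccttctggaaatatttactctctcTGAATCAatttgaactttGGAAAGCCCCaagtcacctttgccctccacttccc
Pf4, chr5:90772185-90772434, plus strand: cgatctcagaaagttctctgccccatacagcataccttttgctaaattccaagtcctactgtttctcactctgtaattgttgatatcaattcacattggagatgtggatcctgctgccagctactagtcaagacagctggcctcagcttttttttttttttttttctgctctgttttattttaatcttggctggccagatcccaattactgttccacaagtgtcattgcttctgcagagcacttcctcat
Cxcl10, chr5:92348890-92349139, minus strand: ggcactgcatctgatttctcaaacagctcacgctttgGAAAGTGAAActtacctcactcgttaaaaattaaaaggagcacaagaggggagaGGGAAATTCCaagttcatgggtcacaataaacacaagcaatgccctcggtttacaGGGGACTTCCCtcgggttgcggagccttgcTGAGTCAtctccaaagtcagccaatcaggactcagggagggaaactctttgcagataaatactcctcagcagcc
The promoters of Ccl3, Pf4, Ccl22 and Xcl1 held no match to any of the 3 motifs. Ccl9 had an AP-1 match 53 to 47 bases before the start and an NF-kappaB match 35 to 26 bases before it. Cxcl10 had the interferon response match 213 to 204 bases before the start, NF-kappaB matches at 159 to 150 and, overlapping each other, at 104 to 94, and an AP-1 match at 74 to 68. Ccl1 and Ccl20 also had NF-kappaB matches, which makes 4 of 8 promoters with that motif, 2 with AP-1 and 1 with the interferon response motif. Of 32851 promoters in the RefSeq table, cut to the same length, 7.25% held an NF-kappaB match, 6.75% an AP-1 match and 2.98% an interferon response match. A match is a description of the letters, and no match says nothing of binding elsewhere.

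Ccl3, Ccl4, Ccl5 and Ccl9, which all attract myeloid cells or T cells, and the CXC ligand Pf4 rose in KO cells, by 8.61-fold to 24.9-fold on the log2(signal + 16) scale. A probe set was called where limma's moderated test gave a p under 0.05 after Benjamini-Hochberg correction across the whole tested table. Of the 11 probe sets 6 were called higher, none lower (in limma 1, Ccl22, at an unadjusted p under 0.05), 4 were not called and 1, for Ccl20, was too dim to be tested. Over all 27022 tested probe sets 7.89% were called higher and 9.17% lower. The median log2 difference of the 11 probe sets was 3.11 with no filter on dim ones, against -0.05 for all 45037 probe sets. In such bulk RNA, more or fewer cells of a type and more or less RNA per cell cannot be told apart.

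**Figure D1:**
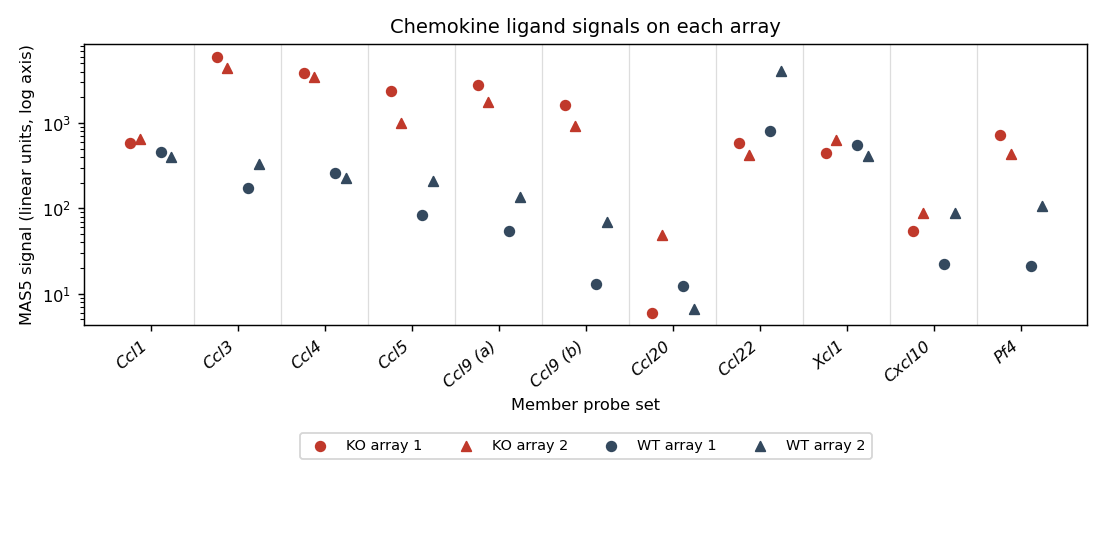
MAS5 signal (linear units on a log axis) of each of the 11 probe sets on KO array 1 and 2 (red) and WT array 1 and 2 (dark blue). Both KO points lie above both WT points for Ccl1, Ccl3, Ccl4, Ccl5, Ccl9 and Pf4, as they do for 25.1% of all tested probe sets. On the WT side Ccl22 was at 807 on array 1 and 4064 on array 2. Ccl9 (a) and Ccl9 (b) are the 2 probe sets of Ccl9.

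Ccl3, a CC ligand that draws monocytes and activated T cells, had signals of 5982 and 4471 on KO arrays 1 and 2 and of 172 and 330 on WT arrays 1 and 2. The groups stood far apart, with a mean of 5227 ± 1068 in KO and 251 ± 112 in WT cells (signal, SD, n = 2 each). On the log2 scale KO exceeded WT by 4.35 ± 0.27 (SE of the limma fit, adjusted p = 3.54e-05), a 20.4-fold difference. With 1 array left out it ran from 3.91 to 4.79 and stayed called.

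Ccl4, a CC ligand closely related to Ccl3, had the most even arrays of all the ligands that rose. Its signals were 3826 and 3481 on the KO arrays and 259 and 229 on the WT arrays, with KO array 1 at 1.10 times KO array 2 and WT array 2 at 0.885 times WT array 1. The log2 fold change was 3.82 ± 0.14 (limma, adjusted p = 4e-06), or 14.1-fold. Leaving out any 1 array kept it between 3.74 and 3.90.

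Ccl5, a ligand stored and released by effector and memory T cells, was less even. Its signals were 2354 and 1015 on KO arrays 1 and 2, against 83.6 and 211 on WT arrays 1 and 2. The KO arrays were 2.32 times apart and the WT arrays 2.53 times, yet the groups did not overlap. The log2 fold change was 3.38 ± 0.44 (limma, adjusted p = 0.00149), or 10.4-fold. Leaving out 1 array moved it to between 2.78 and 3.98, over 1.5 times for each of the 4 arrays, and the call was lost without the intensity trend (limma, adjusted p = 0.0617).

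Ccl9, a mouse CC ligand known from myeloid cells, was higher in KO cells by both of its probe sets. Its first probe set, (a) in the plots, gave 2760.2 and 1767 on KO arrays 1 and 2 and 54.5 and 137 on WT arrays 1 and 2, a log2 fold change of 4.42 ± 0.35 (limma, adjusted p = 0.000128). Its second, (b), gave 1627 and 919 on the KO arrays and 12.8 and 70.0 on the WT arrays, a log2 fold change of 4.64 ± 0.48 (limma, adjusted p = 0.000451). Both probe sets thus moved the same way by similar amounts. The second rests on a dim WT signal: it was 5.29 with a pseudocount of 1, 3.67 with 64, 3.85 without WT array 1 and 5.43 without WT array 2, and it stayed called in each case.

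Pf4, a CXC ligand known from platelet granules, was the remaining gene that rose. Its signals were 732 and 429 on KO arrays 1 and 2, against 21.0 and 105 on WT arrays 1 and 2, with no overlap. KO exceeded WT by a log2 fold change of 3.11 ± 0.51 (limma, adjusted p = 0.00443), or 8.61-fold. It was 2.25 without WT array 1, 3.96 without WT array 2 and 2.38 with a pseudocount of 64, and the call was lost without the intensity trend (limma, adjusted p = 0.079). Of the platelet and megakaryocyte list 10 of 12 genes had a probe set, and their summed signal was 758 to 865 on the KO arrays and 621 to 733 on the WT arrays. Of the 5 tested, only Gp1bb, a platelet adhesion receptor chain, was called (log2 fold change 1.66 ± 0.42, limma, adjusted p = 0.0287), a call that leaving out WT array 1 or either KO array ended. Ppbp, the platelet CXC ligand gene next to Pf4, was too dim to be tested, at 72.2 and 44.9 on the KO arrays and 25.3 and 2.29 on the WT arrays.

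**Figure D2:**
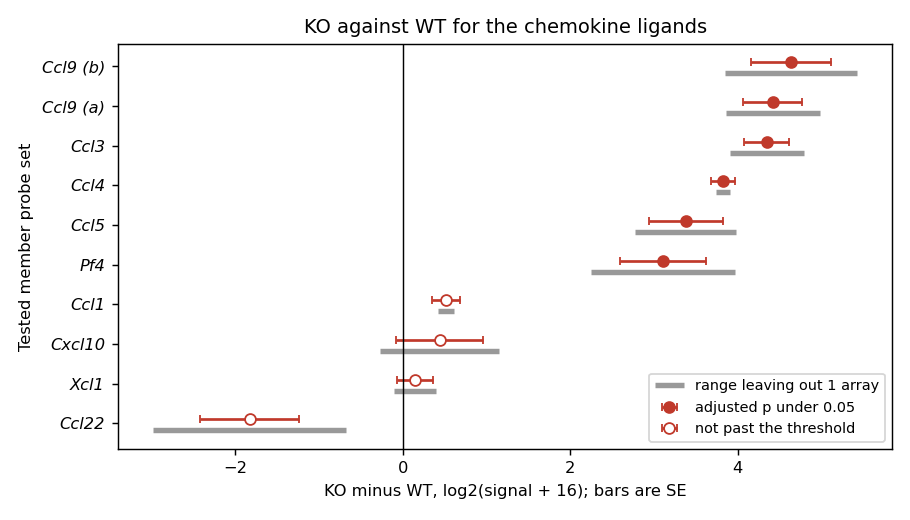
KO minus WT difference in log2(signal + 16) for the 10 tested probe sets, with bars for SE, filled points past an adjusted p of 0.05 and open points not past it. Grey bars give the range with 1 array left out, which for Ccl22 runs from -2.98 to -0.67 and for Ccl4 from 3.74 to 3.90.

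Ccl22, the ligand of Ccr4, was the 1 ligand with both KO signals below both WT signals, and it did not pass the test. Its signals were 591 and 425 on KO arrays 1 and 2, against 807 and 4064 on WT arrays 1 and 2. The 2 WT arrays differed 5.04 times, and only 0.133% of tested probe sets differed as much between the WT arrays on the log2 scale. The log2 fold change was -1.82 ± 0.59 (limma, adjusted p = 0.0684, 95% interval -3.17 to -0.48). Its size hangs on WT array 2: it was -2.98 without WT array 1 and -0.67 without WT array 2. Each of these fits leaves 1 WT array, so it holds no measure of the WT spread. With all 4 arrays Ccl22 was called with each array centred on its median (limma, adjusted p = 0.0359), with the array number as a block (adjusted p = 0.0151) and without cross-hybridising probe sets (adjusted p = 0.0482). Both KO signals below both WT signals is common in these data, at 35.1% of tested probe sets, against 25.1% with both KO signals above. Ccl17, the other Ccr4 ligand and a close neighbour of Ccl22 on chromosome 8, was at 137 and 161 on the KO arrays and at 105 and 244 on the WT arrays, so the groups overlapped.

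Ccl1, the ligand of the skin-homing and Treg receptor Ccr8, was slightly higher on the KO arrays without passing the test. Its signals were 582 and 659 on the KO arrays and 457 and 398 on the WT arrays. The groups did not overlap, with a log2 fold change of 0.52 ± 0.17 (limma, adjusted p = 0.0668, 95% interval 0.14 to 0.91). It was not called under any of the 13 other settings.

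Xcl1, the C chemokine that attracts cross-presenting dendritic cells, showed overlapping groups. Its signals were 444 and 632 on the KO arrays and 548 and 415 on the WT arrays. The fitted log2 fold change was 0.15 ± 0.22 (limma, adjusted p = 0.701), with a 95% interval of -0.35 to 0.65, an interval that does not reach the changes of Ccl3 or Ccl4.

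Cxcl10, an interferon-induced ligand of Cxcr3, was dim on all arrays. Its signals were 53.8 and 89.3 on the KO arrays and 22.6 and 87.5 on WT arrays 1 and 2, so the groups overlapped. The log2 fold change was 0.44 ± 0.51 (limma, adjusted p = 0.61, 95% interval -0.73 to 1.61). Its close relative Cxcl11 was at 80.0 and 83.0 on the KO arrays and at 4.17 and 164 on WT arrays 1 and 2, a difference between WT arrays in the same direction as that of Cxcl10. In the list of interferon response genes around Cxcl10, 2 of 9 tested genes rose and none fell (in limma 4 and 1 at an unadjusted p under 0.05), at a median log2 fold change of 0.38. These were the interferon-gamma gene Ifng (1.99 ± 0.18, limma, adjusted p = 0.00023) and the signalling inhibitor gene Socs1 (0.73 ± 0.13, limma, adjusted p = 0.00708), the call of Socs1 being lost without the intensity trend. Without WT array 2, 4 of the interferon response genes around Cxcl10 were called higher.

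Ccl20, the ligand of Ccr6, was near the lower end of the signal range. Its signals were 6.00 and 48.1 on the KO arrays and 12.4 and 6.63 on the WT arrays, so that 1 KO array stood above the others. Its mean log2(signal + 16) of 4.95 was under the minimum of 5.62 for testing, and no test was made.

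Of the members that rose, Ccl3, Ccl4, Ccl5 and Ccl9 lie in 1 chromosomal cluster and Pf4 in another. Ccl2, another ligand called higher, was not among the neighbouring genes looked at here. By the gene order of RefSeq, Ccl5, Ccl9, Ccl6, Ccl3 and Ccl4 follow each other on chromosome 11 with no other protein-coding gene between them, and all were called higher. Ccl6, a myeloid CC ligand related to Ccl9, had signals of 1645 and 925 on the KO arrays and 10.7 and 53.7 on the WT arrays (log2 fold change 4.86 ± 0.44, limma, adjusted p = 0.000255). Its WT mean was under the minimum for testing, so Ccl6 was tested only through its KO signals. Ccl1 sits in a separate group on the same chromosome beside Ccl8, which was not called, and Ccl7, Ccl11 and Ccl12, which were too dim to be tested. The 4 genes looked at on that side end at Ccl7, so they do not show whether further ligand genes of that group rose. On chromosome 5 Pf4 is followed by Cxcl3, Cxcl15, Cxcl1 and Cxcl2, of which Cxcl15 was too dim to be tested. The neutrophil-attracting ligands Cxcl3 (3.97 ± 0.42), Cxcl1 (3.21 ± 0.26) and Cxcl2 (4.19 ± 0.60) were called higher, with the log2 fold change ± SE in brackets. The call of Cxcl2 was lost without the intensity trend. These sizes hang on the WT arrays: without WT array 1 and without WT array 2, Cxcl2 was at 3.06 and 5.33, Cxcl3 at 3.23 and 4.71, and Ccl6 at 4.16 and 5.55. Among the nearest 4 protein-coding genes on either side of each ligand gene, 26 tested genes were no chemokine ligands, of which 3 rose and 5 fell, at a median log2 fold change of 0.07. Over all tested genes 10.5% were called higher and 9.95% lower. Of the 5 that fell, Atp1b1 (-3.67 ± 0.11) and Sft2d2 (-1.06 ± 0.12) were near Xcl1. Arl2bp (-0.54 ± 0.10) and Ciapin1 (-0.69 ± 0.18) were near Ccl22, and Lig3 (-0.60 ± 0.16) near Ccl1. The 3 that rose were Stbd1 (2.86 ± 0.48), a glycogen-binding protein gene near Cxcl10, and the whey acidic protein domain genes Wfdc17 (2.41 ± 0.42) and Wfdc21 (1.89 ± 0.46) beyond Ccl4. Without the intensity trend all 3 lost their calls, and Wfdc21 also lost its call with no filter and without KO array 1. Without WT array 1 and without WT array 2, Wfdc17 was at 1.63 and 3.18 and Wfdc21 at 1.10 and 2.69.

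**Figure D3:**
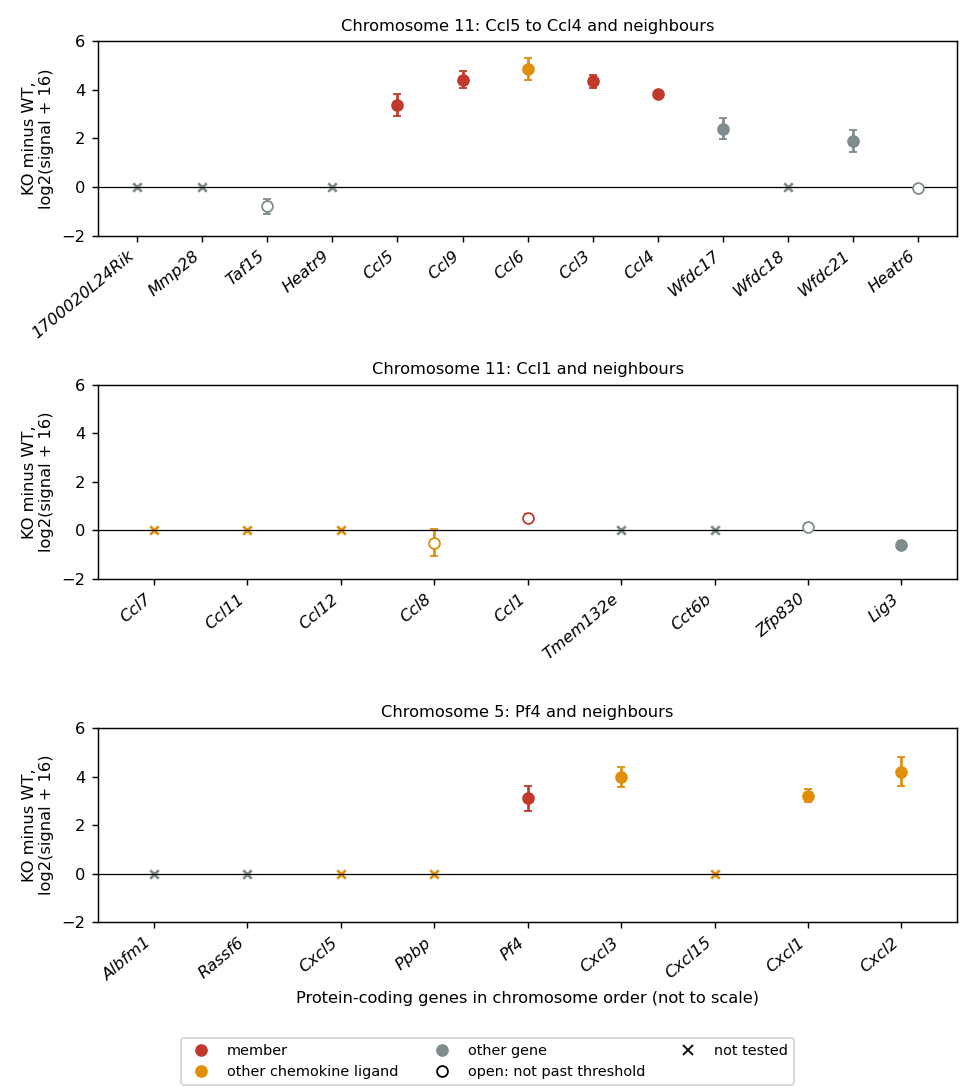
KO minus WT difference in log2(signal + 16), with SE bars, for protein-coding genes in chromosome order around Ccl5 to Ccl4, around Ccl1 and around Pf4. Filled points passed an adjusted p of 0.05, open points did not, and crosses at 0 mark genes that were not tested or have no probe set of their own. Ccl5, Ccl9, Ccl6, Ccl3 and Ccl4 lie between 3.38 and 4.86, while Ccl1 is at 0.52.

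Of the 28 other chemokine ligands listed, 25 had a probe set, 14 were bright enough to be tested, 5 rose and none fell (in limma 6 and 0 at an unadjusted p under 0.05), at a median log2 fold change of 0.45. Of those that rose, Ccl6 and Ccl2 had WT means under the minimum for testing. They were tested only through their KO signals, so for them being tested was tied to being higher in KO cells. Over all 12545 tested genes, with 1 probe set each, 10.5% were called higher and 9.95% lower, at a median of -0.03. Besides Ccl6, Cxcl1, Cxcl2 and Cxcl3, the monocyte-attracting ligand Ccl2 rose (log2 fold change 1.90 ± 0.51, limma, adjusted p = 0.0369), with signals of 142 and 137 on the KO arrays and 8.14 and 56.1 on the WT arrays. That call was lost under 6 of 12 other settings, among them those without WT array 1 (1.11), KO array 1 or KO array 2, and Ccl2 was at 2.69 without WT array 2.

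Several receptors for these ligands were higher in KO cells as well. Ccr1, which binds Ccl3, Ccl5 and Ccl9, was at 357 and 239 on the KO arrays and 73.0 and 54.9 on the WT arrays (log2 fold change 1.96 ± 0.29, limma, adjusted p = 0.00284). Cxcr3, which binds Cxcl10, was at 586 and 631 on the KO arrays and 134 and 163 on the WT arrays (1.93 ± 0.20, limma, adjusted p = 0.000427). Ccr4, which binds Ccl22, was at 278 and 312.5 on the KO arrays and 84.3 and 113 on the WT arrays (1.45 ± 0.25, limma, adjusted p = 0.0054). Receptor and ligand did not move alike in each case: Ccr1 rose with Ccl3, Ccl5 and Ccl9, whereas Cxcr3 and Ccr4 rose while neither Cxcl10 nor Ccl22 was called. Ccr8, the receptor of Ccl1, was at 0.65 ± 0.25 (limma, adjusted p = 0.12) and Ccr6, that of Ccl20, at 0.72 ± 0.25 (limma, adjusted p = 0.0861). Ccr6 passed with the array number as a block and without KO array 1. Ccr3 and Xcr1 were too dim to be tested, so 3 of 5 tested receptors rose, none fell and 2 did not pass, though all 5 were higher at an unadjusted p under 0.05 in limma.

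Of the genes that store, scavenge or cut chemokines, 1 of 6 tested rose. This was Srgn, the granule proteoglycan serglycin to which granule chemokines bind, at 26596 and 23820 on the KO arrays and 13348 and 15709 on the WT arrays (log2 fold change 0.80 ± 0.10, limma, adjusted p = 0.00152). Of 17 tested genes of chemokine receptor signalling 7 rose and 1 fell, at a median log2 fold change of 0.26. Those with the smallest p were Elmo1 (1.28 ± 0.13), which activates Rac with Dock2, the small GTPase gene Rap1a (0.79 ± 0.09), the G protein chain gene Gng2 (0.93 ± 0.11) and the lipid kinase gene Pik3cg (0.94 ± 0.13). Rasgrp2, an activator of Rap proteins, fell (-0.59 ± 0.17, limma, adjusted p = 0.0448), a call lost under 7 of 13 other settings, and the calls of Srgn, Rap1a, Gng2 and Pik3cg were lost without the intensity trend.

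Some markers of other cell types were higher on the KO arrays beside these ligands. Their part in the ligand results was not tested. Of 9 mast cell and basophil markers with a probe set 8 rose, and their summed signal was 29974 to 44262 on the KO arrays and 862 to 1370 on the WT arrays. Mcpt1, a mast cell protease, was at 13771 and 7820 on the KO arrays and at 41.3 and 52.3 on the WT arrays, and the high-affinity IgE receptor chain Fcer1a at 2260 and 1553 on the KO arrays and 29.4 and 30.3 on the WT arrays, while Kit (0.32 ± 0.16) was not called. Of the eosinophil markers both tested ones, Prg2 and Epx, rose, and Siglecf, Ccr3 and Il5ra were too dim to be tested. The sum of the 5 with a probe set was 2064 to 5469 on the KO arrays and 26.9 to 88.8 on the WT arrays. Prg2 and Epx, and Cpa3, Hdc, Fcer1a and Ms4a2 of the mast cell list, had WT means under the minimum of 5.62 for testing. They were tested only through their high KO signals, so being tested was tied to being higher in KO cells. Of the monocyte and macrophage markers 4 of 6 tested rose, Cd14 (3.37 ± 0.66), Lyz2 (1.87 ± 0.33), Adgre1 (1.61 ± 0.26) and Cd68 (1.43 ± 0.30). The others, Csf1r (-0.11 ± 0.29) and Fcgr1 (-0.58 ± 0.35), went the other way and were not called. The sums over 7 genes were 1473 to 1703 in KO and 467 to 638 in WT cells, and Itgam was too dim to be tested. All 3 CD8 T cell markers rose, Cd8a (1.78 ± 0.18), Cd8b1 (1.02 ± 0.14) and Gzmk (4.48 ± 0.52), with sums of 3281 to 6199 in KO and 925 to 1040.0 in WT cells. Of 3 tested NK markers Tyrobp, an adaptor also used in myeloid cells, rose, with sums over 5 genes of 2143 to 2805 in KO and 1256 to 1370 in WT cells, and Ncr1 was too dim to be tested. Of 4 tested dendritic cell markers the class II gene H2-Ab1 rose, with sums over 7 genes of 2112 to 2390 in KO and 896 to 1483 in WT cells. None of 4 tested B cell markers was called in limma, 0 of them at an unadjusted p under 0.05, and the sums over 5 genes were 732 to 1022 in KO and 497 to 1151 in WT cells, though 1 B cell marker was called lower without WT array 1. Without the intensity trend Cd14, Adgre1, Cd68, Tyrobp, H2-Ab1, Gzmk and Epx lost their calls, which left 1 of the monocyte and macrophage markers, Lyz2. Without WT array 1 and without WT array 2, Cd14 was at 2.11 and 4.62 and Tyrobp at 1.87 and 4.41. Without KO array 1 and without KO array 2, Gzmk was at 3.63 and 5.33, Epx at 3.51 and 5.41, and Prg2 at 6.25 and 7.48.

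The ligands also differed between arrays of 1 genotype, and marker lists differed with them. KO array 1 exceeded KO array 2 at 7 of 10 tested ligand probe sets and WT array 2 exceeded WT array 1 at 7 of 10, against 48.2% and 52.3% of all tested probe sets. Ccl3, Ccl5, both Ccl9 probe sets, Pf4 and Ccl22 were higher on both KO array 1 and WT array 2, and Xcl1 and Ccl1 were lower on both. No label ties KO array 1 to WT array 2, so setting these 2 directions side by side only describes the arrays. Between KO arrays 1 and 2 the summed mast cell and basophil markers differed 1.48 times, the eosinophil markers 2.65 times, the dendritic cell markers 1.13 times and the T cell defining markers 1.06 times, and the CD8, NK, B cell, monocyte and macrophage, and platelet markers 1.89, 1.31, 1.40, 1.16 and 1.14 times. Between WT arrays 2 and 1 the mast cell and basophil markers differed 1.59 times, the eosinophil markers 3.30 times, the dendritic cell markers 1.66 times and the T cell defining markers 0.967 times, and the CD8, NK, B cell, monocyte and macrophage, and platelet markers 1.12, 1.09, 2.31, 1.37 and 1.18 times. The eosinophil ratio between WT arrays rests on dim signals, with sums over 5 genes of 26.9 on WT array 1 and 88.8 on WT array 2. Siglecf, which was too dim to be tested, was at 0.644 and 27.8 on those arrays. The part of these lists in the differences between arrays was not tested.

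**Figure D4:**
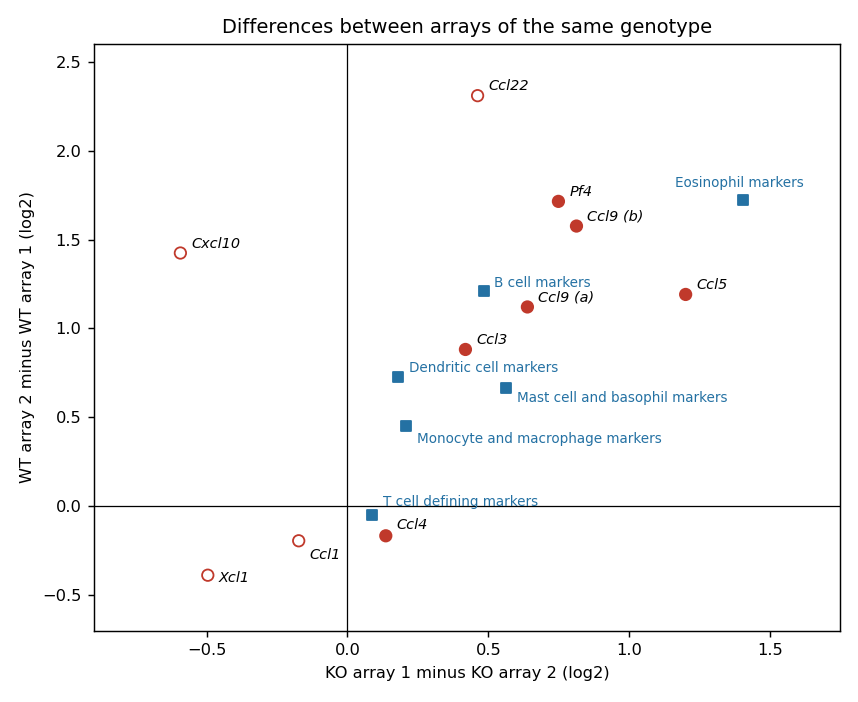
Difference in log2(signal + 16) of the 10 tested ligand probe sets between KO array 1 and KO array 2 (horizontal axis) and between WT array 2 and WT array 1 (vertical axis), with filled circles for probe sets called higher in KO. Blue squares give the same log2 differences for the summed signals of marker lists, with no pseudocount. The CD8, NK and platelet lists are not plotted, and the eosinophil square rests on dim WT signals. Pf4, Ccl5, Ccl9 and Ccl3 lie at the upper right, and Ccl4 and the T cell defining markers lie near the origin.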

How the data were processed

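KO and WT T cells gave 4 arrays, each from 6 micrograms of total RNA, per the labels' protocols. The deposited intensity of each probe set is linear. The submitters' processing notes name MAS5, but its version and settings are not given in the sources used here. After leaving out 2% at each end, every array had the same mean. Of 45101 probe sets, 34958 name 1 gene in the platform annotation, 932 several and 9211 none, and none was named from several. Gene order and promoters come from RefSeq (GRCm38.p6), in which the gene identifiers of 34754 of the 34958 probe sets that name 1 gene were found.

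After leaving out 64 control probe sets, signals went to log2(signal + 16), and the dimmest 40% by mean over the arrays were not tested. For genes dim in WT cells, being tested was thus tied to being higher in KO cells. Ccl6, Ccl2 and Gp1bb, with WT means under that limit, were tested only through their KO signals. The KO minus WT difference was fitted in limma 3.58.1 (R 4.3.3) with an intensity trend, with 2 residual and 6.41 prior degrees of freedom. Intervals are 95% intervals of that fit. With 2 arrays a group, the smallest two-sided p of an exact permutation test is 0.333. Fold changes are on the log2(signal + 16) scale and understate changes of dim genes. The number of arrays limits the precision.

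Some genes stand in more than 1 list (Ppbp, Ccr3, Xcr1, Cxcl9 and Cxcl11). Other lists used 1 probe set per gene, the one with the highest mean. All members were named, and of the other lists the receptors, the called genes or those with the smallest p. Genes named outside that rule, namely chromosomal neighbours, Cxcl11, Ccl17, Kit, Ppbp and dim genes, were chosen after their values were seen. The members, lists and tests were chosen with earlier results of these data known. Alternatives were other pseudocounts, filters and scalings, no intensity trend, a replicate block, no cross-hybridising probe sets and leaving out each array. Leaving out an array left 1 array in its group, so calls in such a fit rest on the spread of the other group alone.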

Additional observations from a re-analysis of the deposited data

How the results depend on the processing

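The count of ligand probe sets called was 6, was 4 without the intensity trend, when Ccl5 and Pf4 lost their calls, and was 6 or 7 with 1 array left out and under the other alternatives, the seventh being Ccl22. Over all probe sets 4608 calls became 1183 without the intensity trend and 2786 to 4387 with 1 array left out, with 3032 without WT array 1 and 2786 without WT array 2. Over the 14 other lists 46 called genes became 21 without the intensity trend and 40 to 45 with 1 array left out. Some log2 fold changes turned sign with 1 array left out. Cxcl10 ran from -0.27 without WT array 1 to 1.15 without WT array 2, and Cxcl11 from -0.88 to 2.27 in the same way. Xcl1 ran from -0.10 without KO array 2 through -0.05 without WT array 2 to 0.39 without KO array 1. Ccl17 ran from -0.66 without WT array 1 to 0.44 without WT array 2. The cause was not tested. The array numbers alone do not show whether KO and WT samples were paired. Differences between arrays 2 and 1 correlated at r = 0.0103 across probe sets between the genotypes, which cannot show how samples were paired. With the replicate block 5382 probe sets were called, 7 of the ligands among them, with Ccl22 at an adjusted p of 0.0151 in limma, and 50 genes of the other lists.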
